A study of Arabidopsis thaliana with 18 samples.

Results

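A set of 10 genes that plants use under low oxygen was followed through Arabidopsis thaliana (thale cress) roots grown with or without bisphenols. They were chosen by locus for their known roles, with earlier results of these data known: ADH1 (AT1G77120), PDC1 (AT4G33070), PDC2 (AT5G54960), HRE1 (AT1G72360), HRE2 (AT2G47520), LBD41 (AT3G02550), SUS4 (AT3G43190), PGB1 (AT2G16060), PCO1 (AT5G15120) and PCO2 (AT5G39890). They make up 10 of the 33602 loci in the expression tables. Levels are in FPKM, which scales a transcript's fragments by its length and by the library's mapped total. All 10 averaged at least 1 FPKM across the 18 libraries, so none was lost to the filter on low values. Strand-specific messenger RNA libraries came from roots of wild-type (WT) seedlings after 14 days on agar with sucrose. There were 3 libraries each of roots grown on BPA, BPB, BPE, BPF or BPS, and 3 of control roots. Control plates held DMSO below 0.01%, and the labels name no transgene, mutation or other agent in any group. The compounds are bisphenols, in which a bridge joins a pair of phenol rings. The bridging carbon of BPA bears methyl groups, that of BPB an ethyl beside a methyl, that of BPE a single methyl and that of BPF none, while BPS is bridged by a sulfonyl. Doses of 1, 3 and 10 mg/L are named in the protocol without saying which library had which, so any pair of compounds compared here may differ in dose. The comparisons with control ask how transcripts of the low-oxygen response differ in roots grown on each compound. Those between compounds ask whether the compounds differ among themselves.

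When oxygen runs short, plant cells make ATP by glycolysis and regenerate NAD+ by fermentation. Pyruvate decarboxylases (PDC1, PDC2) turn pyruvate into acetaldehyde, alcohol dehydrogenase (ADH1) reduces that to ethanol, and sucrose synthases such as SUS4 break down sucrose to feed the pathway. The response is switched on by group VII ethylene response factors, to which HRE1 and HRE2 belong. In air, plant cysteine oxidases (PCO1, PCO2) oxidize the first cysteine of these factors and so mark them for breakdown by the N-degron pathway. LBD41, a LOB-domain protein, and PGB1, a phytoglobin that removes nitric oxide, are among the genes that low oxygen induces in Arabidopsis seedlings, and PCO1 and PCO2 are induced with them. Roots on closed agar plates are not labelled as short of oxygen here, and no oxygen measurement was used.

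Fragment totals recovered from the FPKM values ran from 15.86 M to 22.16 M per library, with a median of 18.35 M. The lowest value of any of the 10 genes, 0.888 FPKM of HRE2 in BPB replicate 3, stood for about 13.5 fragments, and the other genes had at least 40.5 fragments in every library. All 12 root markers had a mean of at least 1 FPKM in each group. Their summed level was 357.6 to 459.2 FPKM in BPA, 502.8 to 704.5 in BPB, 323.8 to 388.5 in BPE, 463.6 to 538.5 in BPF and 557.8 to 690.6 in BPS roots, against 388.0 to 413.6 in control roots. Every BPB, BPF and BPS library was thus above the control libraries in this sum. The median change of the 12 root markers in log2(FPKM + 1) was -0.07 in BPA, 0.18 in BPB, -0.15 in BPE, -0.03 in BPF and 0.34 in BPS roots. The summed level of 18 photosynthetic shoot genes was higher in every compound library except BPF replicate 2 than in all 3 control libraries: 385.0 to 743.6 FPKM in BPA, 908.2 to 1193.9 in BPB, 376.1 to 488.8 in BPE, 218.0 to 583.2 in BPF and 336.0 to 1066.5 in BPS roots, against 98.9 to 237.0 in control roots. Of the 15 shoot genes tested, 12 were called higher in BPA, 15 in BPB, 12 in BPE, 0 in BPF and 14 in BPS roots, with 11 higher at an unadjusted p under 0.05 in BPF roots. The share of all loci at an unadjusted p under 0.05 was not computed in any comparison. One shoot gene was at 0 in all libraries of BPF and of control roots. The part of these root and shoot signals in the results below was not tested. BPF replicate 2 stood apart from the other BPF libraries for the low-oxygen genes. The median difference of the 10 genes from their control means, in log2(FPKM + 1), was 0.60 there, against -0.85 in BPF replicate 1 and -1.37 in BPF replicate 3. Nothing in the labels says that the 3 libraries of a group came from separate plates or cultures, so the p-values speak only to the spread among these libraries, which may be technical. In bulk root RNA, fewer cells that hold a transcript and less of it per cell cannot be told apart.

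Against control, the low-oxygen genes were lower in BPA, BPB and BPS roots, less clearly so in BPE roots, and no gene of the 10 was called in BPF roots. A gene was called at an adjusted p below 0.05 in limma, fitted to log2(FPKM + 1) of all 19484 loci with a mean of at least 1 FPKM. In BPA roots 7 of the 10 were called lower and 0 higher, where 3.83% of all loci tested were called lower and 6.57% higher. In BPB roots 8 were called lower and 0 higher, beside 11.1% and 25.5% of all loci. In BPE roots 3 were called lower and 0 higher, beside 5.2% and 9.08%. In BPF roots none was called in either direction, beside 0.677% of all loci lower and 0.708% higher, and at an unadjusted p under 0.05 there was 1 lower (ADH1) and 1 higher (HRE2). The share of all loci at that unadjusted threshold was not computed. In BPS roots 7 were called lower and 0 higher, beside 8.71% and 12.3%. PDC2 and PGB1 were called lower with 4 compounds, BPA, BPB, BPE and BPS, while HRE1 was called with none. These 5 comparisons share the same 3 control libraries and are not independent of each other.

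The median change of the 10 genes was -1.74 in BPA, -2.03 in BPB, -1.25 in BPE, -0.60 in BPF and -1.41 in BPS roots on the log2(FPKM + 1) scale, which understates the change of low genes. Over all loci tested the median change was 0.04, 0.16, 0.04, 0.01 and 0.09 in the same order. With quantile normalization the genes' medians were -1.73, -2.15, -1.22, -0.61 and -1.47, in the same order, and the median of all loci in BPB roots was 0.03. Every compound library was below every control library for 9 of 10 genes in BPA, 10 in BPB, 8 in BPE, 1 in BPF and 8 in BPS roots. Of all loci tested, 13.6%, 14.2%, 20.8%, 13.7% and 14.3% were so, in the same order. The counts turned on single libraries. In a fit of the BPA and control libraries alone, 9 were called lower in BPA roots with replicate number as a block, and 9 without it. Without the block, 2562 of all loci were called either way, against 2027 in the fit to all libraries. With the block that number was not computed. The labels name nothing that same-numbered libraries share. In the fit to all libraries the BPA count of 7 was 1 without BPA replicate 2, 2 without control replicate 1 and 3 without control replicate 3. The number of all loci called either way fell there too, from 2027 to 245, 382 and 569 in the same order. The BPS count of 7 was 4 without BPS replicate 2, 3 without control replicate 1 and 4 without control replicate 3. All loci called either way fell from 4094 to 2785, 2302 and 3044 in the same order. For BPE, the count of 3 was 0 without BPE replicate 1, BPE replicate 2, control replicate 1 or control replicate 3. All loci called either way fell from 2783 to 659, 705, 971 and 449 in the same order. The BPE count was 7 without BPF replicate 2 (2725 loci called) and 5 without BPF replicate 3 (2768), which enter the shared estimate of the spread. The BPB count stayed between 7 and 9 when each library was left out, beside 4990 to 7601 of all loci called either way. The F test over the 6 groups called 9 of the 10 genes, beside 53.3% of all loci, and the exception was HRE1 at an adjusted p of 0.0688.

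**Figure D1:**
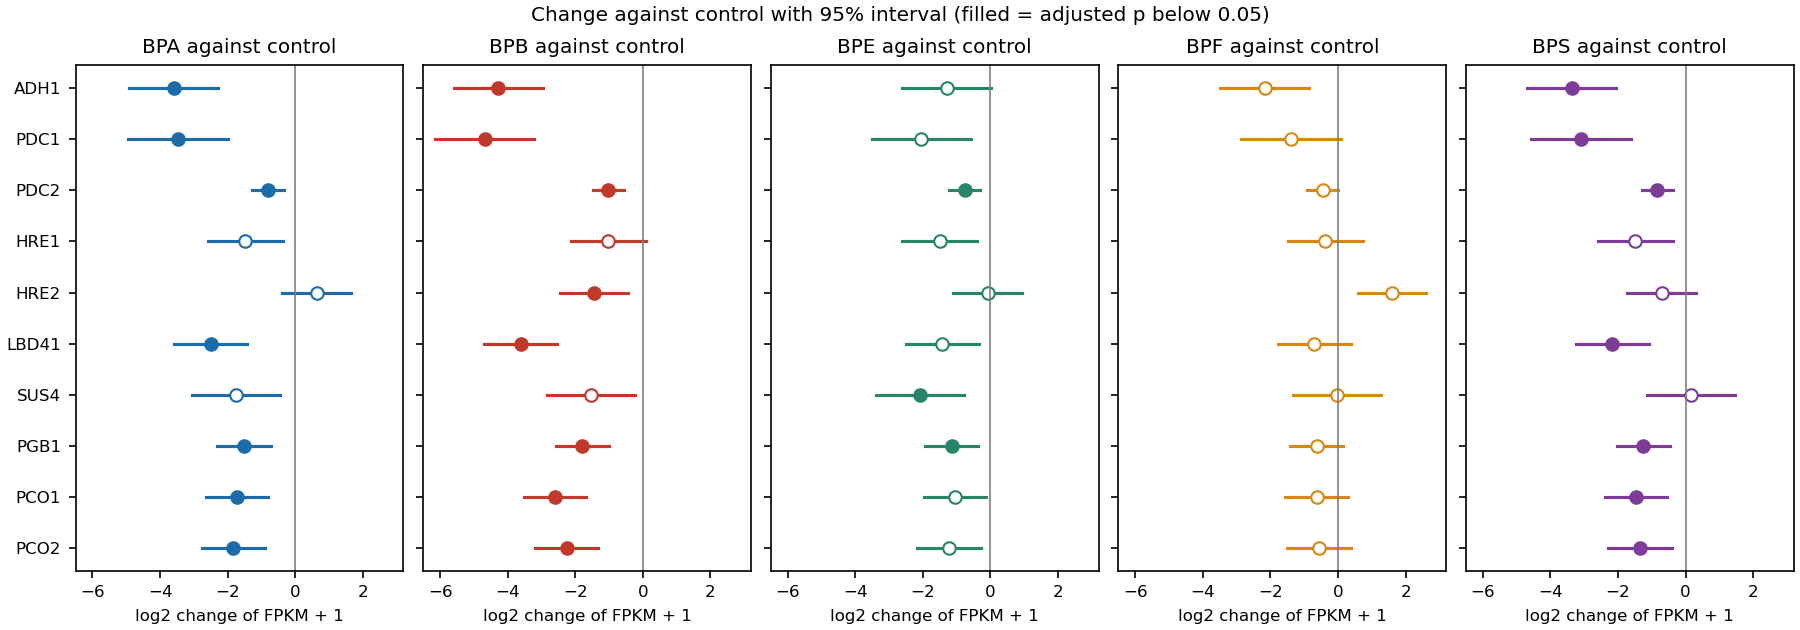
Log2 change of FPKM + 1 against control with its 95% interval for the 10 genes, 1 panel per compound; filled points have an adjusted p below 0.05 in limma. Filled points lie left of 0 in the panels of BPA (7), BPB (8), BPE (3) and BPS (7), and the BPF panel has none.

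Of the fermentation enzymes, ADH1 and PDC1 had the largest falls among the 10 genes in BPA, BPB and BPS roots. ADH1 lies at chr1:28975255-28977417 on the plus strand with 7 exons (RefSeq annotation of TAIR10.1) and was the most abundant of the 10 genes per length in control roots. Its level was 34.5, 22.6 and 17.4 FPKM in BPA roots, 25.0, 6.90 and 17.1 in BPB roots and 85.1, 163 and 133 in BPE roots. It was 73.9, 182 and 20.8 in BPF roots and 17.1, 32.1 and 40.2 in BPS roots, against 380.2, 199 and 359.7 in control roots. All 15 compound libraries were below the lowest control library, and the BPE libraries and BPF replicate 2 were the nearest to it. The means were 24.9 ± 8.78 FPKM in BPA, 16.4 ± 9.08 in BPB, 127 ± 39.4 in BPE, 92.1 ± 82.0 in BPF and 29.8 ± 11.7 in BPS roots, against 313 ± 99.3 in control roots (SD, n = 3 each). The mean in control roots was thus 12.6 times that in BPA, 19.1 times that in BPB and 10.5 times that in BPS roots. The log2 change was -3.60 ± 0.62 in BPA (SE; adjusted p = 0.00615), -4.28 ± 0.62 in BPB (adjusted p = 0.000154) and -3.37 ± 0.62 in BPS roots (adjusted p = 0.00190), and none of these calls was lost when any library was left out. It was -1.29 ± 0.62 in BPE roots (adjusted p = 0.167) and -2.17 ± 0.62 in BPF roots (adjusted p = 0.0925).

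PDC1, at chr4:15952257-15954803 on the minus strand with 5 exons, commits pyruvate to ethanol. Its level was 17.9, 10.5 and 7.80 FPKM in BPA roots, 3.95, 3.11 and 6.58 in BPB roots and 18.0, 41.6 and 45.0 in BPE roots. It was 49.8, 207 and 12.6 in BPF roots and 12.9, 14.96 and 17.8 in BPS roots, against 168, 84.8 and 178 in control roots. BPF replicate 2 was the highest of all 18 libraries, while every other compound library was below all 3 control libraries. The mean in control roots, 144 ± 51.2 FPKM, was 11.9 times that in BPA roots (12.05 ± 5.21), 31.6 times that in BPB roots (4.54 ± 1.81) and 9.43 times that in BPS roots (15.2 ± 2.48; SD, n = 3 each). The change was -3.47 ± 0.69 in BPA (adjusted p = 0.00918), -4.68 ± 0.69 in BPB (adjusted p = 0.000171) and -3.09 ± 0.69 in BPS roots (adjusted p = 0.00587) on the log2 scale. The BPA call was lost without BPA replicate 2 (adjusted p = 0.0525), and the other calls held when each library was left out. In BPE roots PDC1 had a change of -2.04 ± 0.69 and an adjusted p of 0.0586, which was 0.0158 without BPF replicate 2 and 0.0170 without BPF replicate 3.

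PDC2, at chr5:22310553-22312832 on the minus strand with a single exon, encodes the other pyruvate decarboxylase and had smaller changes than PDC1. Its libraries ran from 13.7 to 19.3 FPKM in BPA, 12.3 to 16.3 in BPB, 16.8 to 17.8 in BPE, 16.9 to 34.1 in BPF and 13.8 to 18.8 in BPS roots, against 26.6 to 35.7 in control roots. BPF replicate 2, at 34.1 FPKM, was the only compound library that overlapped the control libraries. The log2 change was -0.81 ± 0.22 in BPA (adjusted p = 0.0321), -1.02 ± 0.22 in BPB (adjusted p = 0.00239), -0.76 ± 0.22 in BPE (adjusted p = 0.0339), -0.46 ± 0.22 in BPF (adjusted p = 0.290) and -0.83 ± 0.22 in BPS roots (adjusted p = 0.0149). The BPB call held when each library was left out. The BPA call was lost without control replicate 1, control replicate 3 or BPA replicate 2 (adjusted p 0.0872 to 0.158). The BPE call was lost without control replicate 1, control replicate 3 or any BPE library (0.0600 to 0.121), and the BPS call without control replicate 1 (0.0722) or BPS replicate 3 (0.0602).

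**Figure D2:**
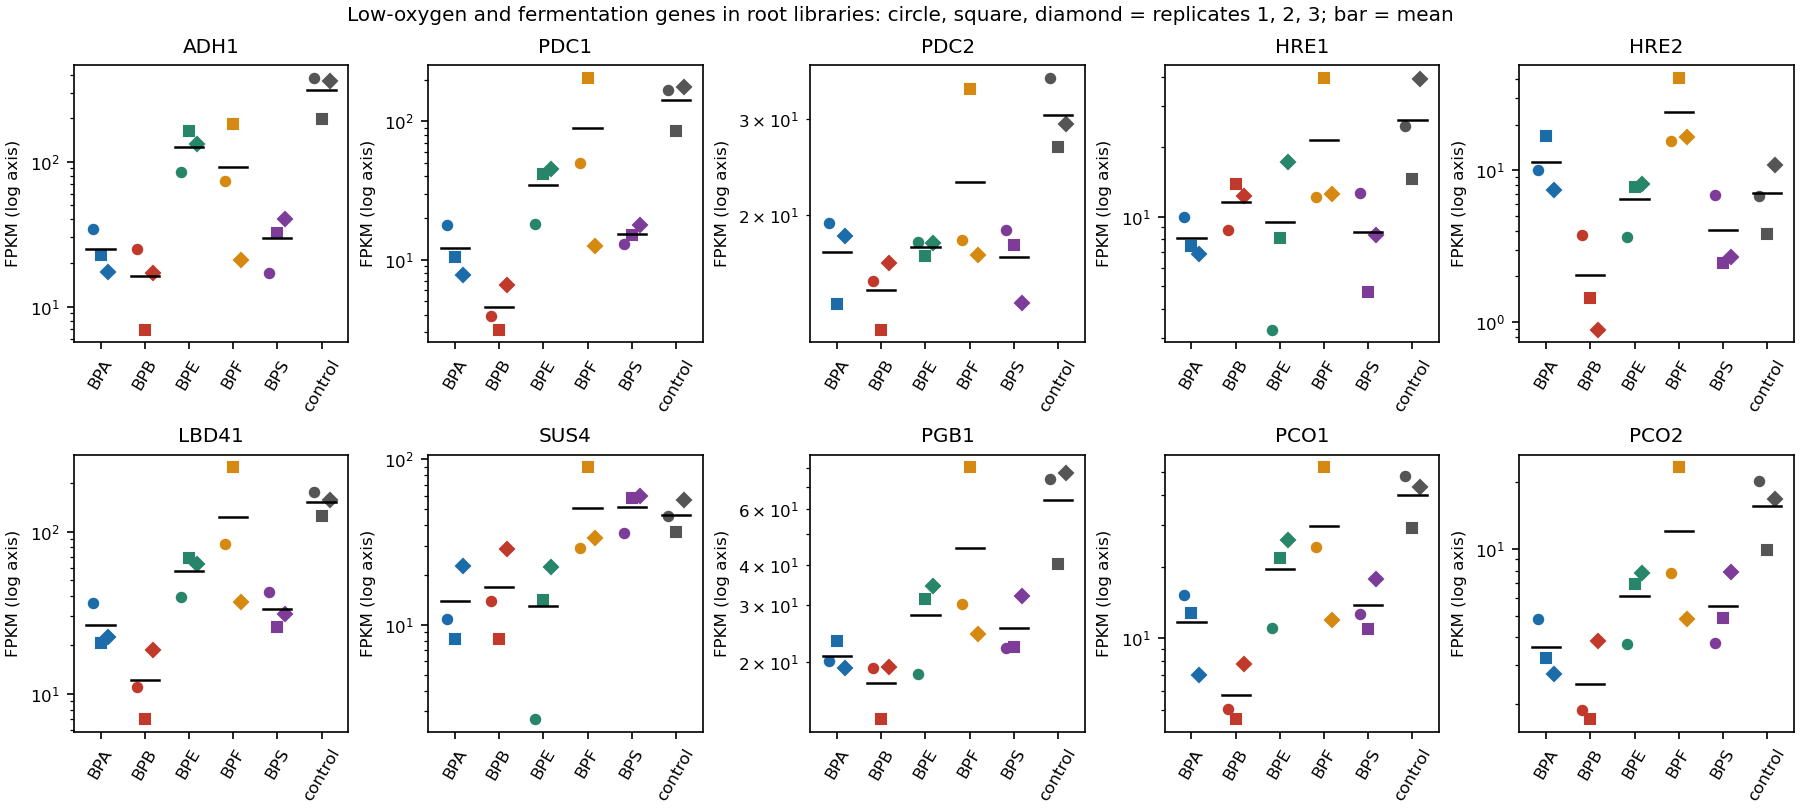
FPKM of the 10 genes in each of the 18 libraries on log axes, 1 panel per gene; circle, square and diamond are replicates 1, 2 and 3 and the bar is the mean of 3. ADH1, PDC1 and LBD41 lie lowest in BPB roots, and BPF replicate 2 (square) lies far above the other BPF libraries in most panels.

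The 250 bases before the annotated gene start are shown for the 3 fermentation enzymes and for LBD41, because these 4 hold every motif match found among the 10 promoters. Of the transcription factor genes, LBD41 fell most in BPA, BPB and BPS roots. The sequences were read from the RefSeq genome TAIR10.1 and are written 5′ to 3′ on the gene's own strand. Capitals mark the motifs searched on both strands: AAACCA, the core of the anaerobic response element first described in maize Adh1, GCCGCC, the GCC box bound by ethylene response factors, and CACGTG, the G-box.
ADH1, chr1:28975005-28975254, plus strand: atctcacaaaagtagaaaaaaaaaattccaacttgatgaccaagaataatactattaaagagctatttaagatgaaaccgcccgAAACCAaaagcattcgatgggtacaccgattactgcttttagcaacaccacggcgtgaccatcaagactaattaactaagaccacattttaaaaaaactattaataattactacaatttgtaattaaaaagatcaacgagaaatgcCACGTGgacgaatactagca
PDC1, chr4:15954804-15955053, minus strand: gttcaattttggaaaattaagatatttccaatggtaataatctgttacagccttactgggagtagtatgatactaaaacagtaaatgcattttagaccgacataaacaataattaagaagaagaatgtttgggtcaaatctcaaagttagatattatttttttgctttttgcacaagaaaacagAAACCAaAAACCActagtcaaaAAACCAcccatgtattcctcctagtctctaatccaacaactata
PDC2, chr5:22312833-22313082, minus strand: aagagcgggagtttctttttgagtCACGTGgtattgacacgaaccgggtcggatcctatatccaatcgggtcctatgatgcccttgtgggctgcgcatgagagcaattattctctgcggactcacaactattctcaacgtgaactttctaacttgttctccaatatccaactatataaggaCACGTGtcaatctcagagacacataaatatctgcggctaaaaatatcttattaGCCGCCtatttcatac
LBD41, chr3:538127-538376, minus strand: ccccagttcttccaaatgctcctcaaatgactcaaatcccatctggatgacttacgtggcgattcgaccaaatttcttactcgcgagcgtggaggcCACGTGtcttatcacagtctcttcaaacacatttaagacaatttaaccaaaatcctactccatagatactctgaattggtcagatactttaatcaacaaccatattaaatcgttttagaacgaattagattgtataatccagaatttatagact
ADH1 holds an AAACCA 166 to 161 bases before the gene start and a G-box 20 to 15 bases before it. PDC1 holds 3 AAACCA matches, at 66 to 61, 59 to 54 and 44 to 39 bases before the start. PDC2 holds G-boxes at 226 to 221 and 69 to 64 bases and a GCC box at 16 to 11 bases, and LBD41 holds a G-box at 154 to 149 bases before the start. AAACCA was thus in 2 of the 10 promoters, against 27.3% of the 27443 promoters of nuclear protein-coding genes, the GCC box in 1 against 1.87% and the G-box in 3 against 6.49%. The hypoxia-responsive promoter element, a longer motif named for group VII factors that itself contains AAACCA, had no match in the 10 windows and one in 0.0401% of all promoters. A match describes these letters only, and its absence says nothing of the factor.

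SUS4, at chr3:15179010-15184105 on the minus strand with 13 exons, encodes a sucrose synthase and, unlike ADH1 and PDC1, had higher means in BPF and BPS than in control roots. Its level was 10.9, 8.26 and 22.6 FPKM in BPA roots, 13.9, 8.26 and 28.6 in BPB roots and 2.70, 14.2 and 22.2 in BPE roots. It was 28.9, 89.3 and 33.2 in BPF roots and 35.8, 58.5 and 59.8 in BPS roots, against 45.1, 36.1 and 56.5 in control roots. All BPA, BPB and BPE libraries were below the lowest control library, and the BPS libraries overlapped the control libraries. SUS4 was called lower in BPE roots only, at 13.02 ± 9.79 FPKM, against 45.9 ± 10.2 in control roots (SD, n = 3 each; log2 change -2.08 ± 0.61, adjusted p = 0.0367). That call was lost without any 1 of the control libraries, BPE replicate 1 or BPE replicate 2 (adjusted p 0.0508 to 0.161). The change was -1.75 in BPA (adjusted p = 0.0766), -1.53 in BPB (adjusted p = 0.0617), -0.03 in BPF (adjusted p = 0.987) and 0.15 in BPS roots (adjusted p = 0.896). In the BPA and control libraries alone, the adjusted p for BPA was 0.00321 with the block and 0.0206 without it. The sign in BPF and BPS roots turned when single libraries were left out. The 95% interval of the BPS change ran from -1.16 to 1.45, so a change of either sign of about that size was not detectable.

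Among the transcription factor genes, LBD41 fell with BPA, BPB and BPS, HRE1 was called nowhere in the fit to all libraries, and HRE2 had its highest level in BPF roots. LBD41 is at chr3:536500-538126 on the minus strand with 2 exons. Its level was 36.3, 20.6 and 22.5 FPKM in BPA roots, 11.1, 7.00 and 18.6 in BPB roots and 39.4, 68.5 and 63.4 in BPE roots. It was 84.1, 249 and 36.8 in BPF roots and 42.3, 26.0 and 31.2 in BPS roots, against 175, 125 and 156 in control roots. All compound libraries except BPF replicate 2 were below the lowest control library, and BPF replicate 2 was the highest of all 18. The control mean of 152 ± 25.3 FPKM was 5.73 times that in BPA roots (26.5 ± 8.57), 12.4 times that in BPB roots (12.2 ± 5.87) and 4.57 times that in BPS roots (33.2 ± 8.34; SD, n = 3 each). The log2 change was -2.50 ± 0.51 in BPA (adjusted p = 0.00977), -3.61 ± 0.51 in BPB (adjusted p = 0.000124) and -2.17 ± 0.51 in BPS roots (adjusted p = 0.00772). The BPA call was lost without control replicate 1 (adjusted p = 0.0519) or BPA replicate 2 (0.0606). In BPE roots LBD41 averaged 57.1 ± 15.6 FPKM, a log2 change of -1.42 ± 0.51 with an adjusted p of 0.0713, and this was 0.0221 without BPF replicate 2 and 0.0308 without BPF replicate 3.

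HRE1 (chr1:27241696-27242968, plus strand) and HRE2 (chr2:19502776-19503702, minus strand) encode the group VII factors that low oxygen itself induces. HRE1 averaged 8.10 ± 1.62 FPKM in BPA, 11.6 ± 2.57 in BPB, 9.52 ± 7.10 in BPE, 21.5 ± 15.8 in BPF and 8.56 ± 3.95 in BPS roots, against 26.2 ± 12.48 in control roots (SD, n = 3 each). Its control libraries ran from 14.6 to 39.4 FPKM, a range wider than any difference of a compound's mean from the control mean. All BPA, BPB and BPS libraries were nonetheless below the lowest control library. The log2 change was -1.48 in BPA, -1.02 in BPB, -1.50 in BPE, -0.38 in BPF and -1.49 in BPS roots. The adjusted p ran from 0.0551 in BPS to 0.761 in BPF roots. For BPS it was 0.0481 with quantile normalization and 0.0489 with median scaling. In the BPA and control libraries alone HRE1 was called lower in BPA roots with the block (adjusted p = 0.0184) and without it (0.0290). With only the BPS and control libraries HRE1 was called lower in BPS roots (0.0487). HRE1 was called lower in BPE roots without control replicate 2 (adjusted p = 0.0470), BPE replicate 3 (0.0261) or BPF replicate 2 (0.0433). It was called lower in BPS roots without control replicate 2 (0.0436), BPS replicate 1 (0.0414), BPE replicate 1 (0.0354), BPE replicate 3 (0.0370) or BPF replicate 2 (0.0343).

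HRE2 was the least abundant of the 10 genes per length in control roots and the only one of them with a higher mean in BPA than in control roots. Its level was 10.0, 16.8 and 7.45 FPKM in BPA roots, 3.76, 1.43 and 0.888 in BPB roots and 3.63, 7.76 and 8.15 in BPE roots. It was 15.6, 40.7 and 16.7 in BPF roots and 6.91, 2.47 and 2.66 in BPS roots, against 6.79, 3.81 and 10.8 in control roots. The 3 BPF libraries were above every control library, the 3 BPB libraries below every one. The log2 change was -1.45 ± 0.48 in BPB roots (adjusted p = 0.0273), a call lost without control replicate 1 (0.0693), control replicate 3 (0.120), BPB replicate 2 (0.0865) or BPB replicate 3 (0.0913). In BPF roots the change was 1.60 ± 0.48 (adjusted p = 0.103), and without BPF replicate 2 it was 1.17 (adjusted p = 0.279). The changes in BPA (0.63), BPE (-0.08) and BPS roots (-0.71) had adjusted p of 0.408, 0.920 and 0.313, and the sign in BPE roots turned when single libraries were left out.

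The oxygen-sensing enzyme genes PCO1 and PCO2 and the phytoglobin gene PGB1 had closely similar profiles across the 6 groups, each with control highest, followed by BPF, BPE, BPS, BPA and BPB. PDC1 and LBD41 had the same order of means. The BPF means include BPF replicate 2, the highest of the 18 libraries for each of these genes. PCO1 (chr5:4898641-4900734, plus strand) was at 15.1, 12.8 and 7.00 FPKM in BPA roots, 5.02, 4.57 and 7.75 in BPB roots and 11.05, 21.7 and 25.8 in BPE roots. It was 24.2, 52.3 and 11.95 in BPF roots and 12.6, 10.9 and 17.6 in BPS roots, against 47.9, 29.0 and 43.2 in control roots. Apart from BPF replicate 2, which was the highest of the 18, every compound library was below the control libraries. The log2 change of PCO1 was -1.73 ± 0.43 in BPA (adjusted p = 0.0236), -2.60 ± 0.43 in BPB (adjusted p = 0.000416), -1.05 ± 0.43 in BPE (adjusted p = 0.114), -0.63 ± 0.43 in BPF (adjusted p = 0.486) and -1.47 ± 0.43 in BPS roots (adjusted p = 0.0260). The BPB call held when each library was left out. The BPA call was lost without control replicate 1, control replicate 3, BPA replicate 2 or BPA replicate 3 (adjusted p 0.0633 to 0.102). The BPS call was lost without control replicate 1, control replicate 3, BPS replicate 1 or BPS replicate 2 (0.0577 to 0.0968).

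PCO2 (chr5:15974270-15976270, plus strand) averaged 3.60 ± 1.08 FPKM in BPA, 2.47 ± 1.18 in BPB, 6.16 ± 2.15 in BPE, 12.03 ± 9.99 in BPF and 5.52 ± 2.13 in BPS roots, against 15.7 ± 5.34 in control roots (SD, n = 3 each). It was called lower in BPA (log2 change -1.83 ± 0.44, adjusted p = 0.0209), BPB (-2.26 ± 0.44, adjusted p = 0.00126) and BPS roots (-1.35 ± 0.44, adjusted p = 0.0422). The order of the means was the same as for PCO1. The BPA call was lost without control replicate 1, control replicate 3 or BPA replicate 2 (adjusted p 0.0751 to 0.0999). The BPS call was lost without control replicate 1, control replicate 3, BPA replicate 2, BPE replicate 2, BPS replicate 1 or BPS replicate 2 (0.0527 to 0.154).

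PGB1 (chr2:6982531-6983777, minus strand) was at 20.1, 23.2 and 19.2 FPKM in BPA roots, 19.1, 13.3 and 19.3 in BPB roots and 18.3, 31.4 and 34.4 in BPE roots. It was 30.3, 80.7 and 24.5 in BPF roots and 22.2, 22.3 and 32.2 in BPS roots, against 73.9, 40.4 and 77.2 in control roots. BPF replicate 2 was again the highest of the 18 libraries, and the other 14 compound libraries were below the lowest control library. The log2 change was -1.52 ± 0.37 in BPA (adjusted p = 0.0211), -1.79 ± 0.37 in BPB (adjusted p = 0.00175), -1.15 ± 0.37 in BPE (adjusted p = 0.04999), -0.63 ± 0.37 in BPF (adjusted p = 0.397) and -1.25 ± 0.37 in BPS roots (adjusted p = 0.0260). The BPE value lay at the threshold and was above it in 14 of the 18 fits that left out 1 library each, with an adjusted p of up to 0.196 without control replicate 3. The BPA call was lost without control replicate 1, control replicate 3 or BPA replicate 2 (0.0735 to 0.0949), and the BPS call without control replicate 1, control replicate 3, BPS replicate 1 or BPS replicate 2 (0.0663 to 0.0993).

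Per length, the order of mean levels in control roots was ADH1 (313 ± 99.3 FPKM), LBD41 (152 ± 25.3), PDC1 (144 ± 51.2), PGB1 (63.8 ± 20.4), SUS4 (45.9 ± 10.2), PCO1 (40.0 ± 9.85), PDC2 (30.6 ± 4.68), HRE1 (26.2 ± 12.48), PCO2 (15.7 ± 5.34) and HRE2 (7.14 ± 3.52; SD, n = 3 each). Neighbours in that order lay closer together than the sum of their SDs, except ADH1 and LBD41, and PDC1 and PGB1. Control replicate 2 had the lowest level of the 3 control libraries for all 10 genes.

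For the median of the 10 genes, the BPF libraries lay farthest apart within a group. The median difference of the 10 genes from their control means, in log2(FPKM + 1), was -0.85 in BPF replicate 1, 0.60 in BPF replicate 2 and -1.37 in BPF replicate 3. Within the other groups the libraries ran from -1.51 to -1.89 in BPA, -1.87 to -2.44 in BPB, -0.84 to -1.79 in BPE and -1.10 to -1.60 in BPS roots, against -0.58 to 0.29 in control roots. The summed shoot markers were lowest in BPF replicate 2 among the BPF libraries (218.0 FPKM, against 345.8 in replicate 1 and 583.2 in replicate 3). Among the control libraries they were highest in control replicate 2 (237.0, against 117.1 in replicate 1 and 98.9 in replicate 3). Other groups varied. Replicate 3 had both the highest sum and the highest median difference in BPB (1193.9 FPKM and -1.87) and BPS roots (1066.5 and -1.10). In BPE roots replicate 1 was lowest in both (376.1 and -1.79). In BPA roots replicate 1 had the lowest sum (385.0) and the highest median difference (-1.51). The part of the markers in these differences was not tested. Without BPF replicate 2, limma still called none of the 10 genes in BPF against control roots. In that fit ADH1 had a change of -2.90 with an adjusted p of 0.0501, PDC1 of -2.39 with 0.0694, PDC2 of -0.77 with 0.0729 and LBD41 of -1.41 with 0.130. There 0.0924% of all loci were called lower and 0.185% higher.

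**Figure D3:**
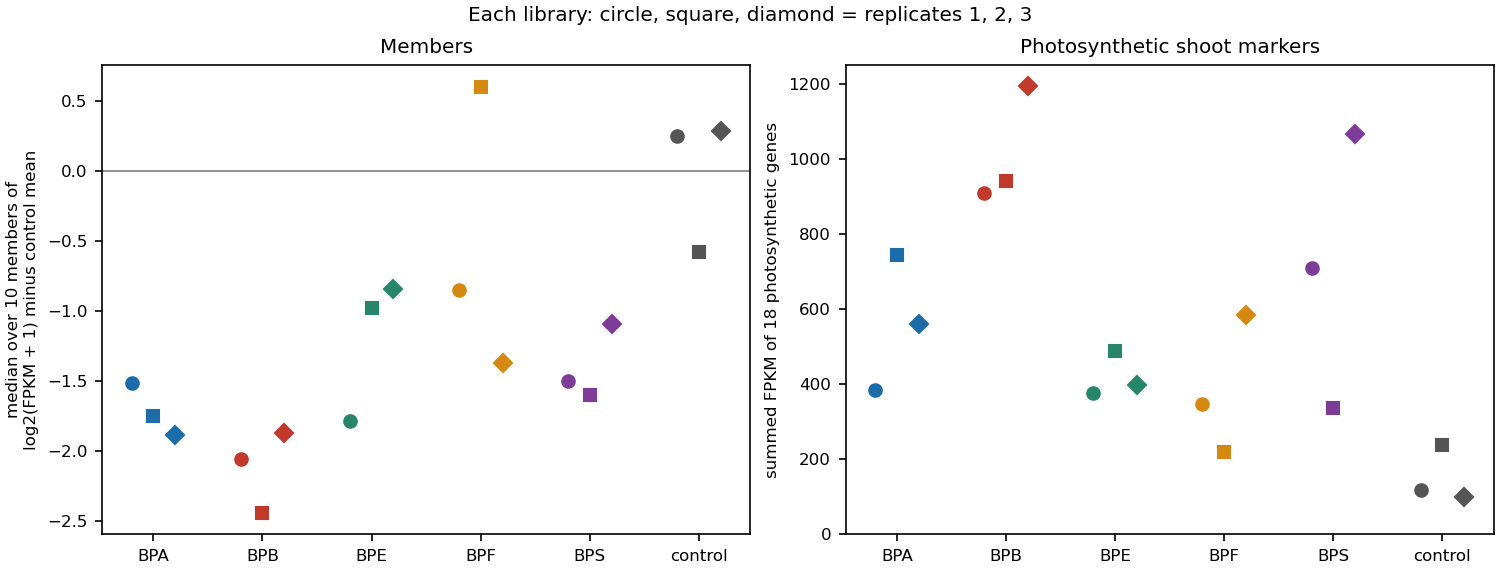
For each library, the median over the 10 genes of log2(FPKM + 1) minus the control mean (left) and the summed FPKM of 18 photosynthetic shoot genes (right); circle, square and diamond are replicates 1, 2 and 3. BPF replicate 2 is at 0.60 on the left, above all other libraries, and at 218.0 FPKM on the right.

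Between compounds, 8 of the 10 genes had their lowest mean in BPB roots, HRE1 had it in BPA and SUS4 in BPE roots, and most calls set BPF or BPE against BPB. Of 100 tests, 10 genes in 10 pairs of compounds, 19 were called, with p-values adjusted within each pair over all loci tested, and the doses may differ in every pair. In BPF against BPB roots 7 genes were called higher and 0 lower, where 7.79% of all loci were called higher and 20.2% lower. ADH1 was at 92.1 ± 82.0 FPKM in BPF roots, against 16.4 ± 9.08 in BPB roots (log2 change 2.11 ± 0.62, adjusted p = 0.0217). Likewise higher were PDC1 (89.7 ± 103 against 4.54 ± 1.81 FPKM; 3.29 ± 0.69, adjusted p = 0.00435), HRE2 (24.4 ± 14.2 against 2.03 ± 1.53 FPKM; 3.04 ± 0.48, adjusted p = 0.000983) and LBD41 (123.4 ± 112 against 12.2 ± 5.87 FPKM; 2.91 ± 0.51, adjusted p = 0.00167). The other 3 were PGB1 (1.16 ± 0.37, adjusted p = 0.0304), PCO1 (1.96 ± 0.43, adjusted p = 0.00582) and PCO2 (1.69 ± 0.44, adjusted p = 0.0132). Without BPF replicate 2, 4 of these were called: PDC1 at 2.29 (adjusted p = 0.0163), HRE2 at 2.62 (0.00670), LBD41 at 2.197 (0.00602) and PCO1 at 1.44 (0.0310). ADH1 was also lost without BPB replicate 2 (0.111) or BPF replicate 1 (0.0603), and PGB1 (0.122) and PCO2 (0.0613) without BPB replicate 2.

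BPE and BPB differ by the ethyl group that BPB bears on the bridging carbon. In BPE against BPB roots 5 genes were called higher and 0 lower, beside 11.7% of all loci called higher and 19.6% lower. ADH1 averaged 127 ± 39.4 FPKM in BPE roots, against 16.4 ± 9.08 in BPB roots (log2 change 2.99 ± 0.62, adjusted p = 0.00290). PDC1 averaged 34.9 ± 14.7 FPKM in BPE roots, against 4.54 ± 1.81 in BPB roots (2.64 ± 0.69, adjusted p = 0.0106). LBD41 averaged 57.1 ± 15.6 FPKM in BPE roots, against 12.2 ± 5.87 in BPB roots (2.19 ± 0.51, adjusted p = 0.00557). These 3 differences held when each library was left out. HRE2 (1.36 ± 0.48, adjusted p = 0.0413) was lost without control replicate 1, BPB replicate 2, BPB replicate 3, BPE replicate 2 or BPE replicate 3 (0.0522 to 0.140), and PCO1 (1.55 ± 0.43, adjusted p = 0.0154) without BPB replicate 2, BPE replicate 2 or BPE replicate 3 (0.0560 to 0.0652).

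The remaining 7 calls involved HRE2, SUS4 and ADH1. HRE2 was lower in BPB than in BPA roots (2.03 ± 1.53 against 11.4 ± 4.81 FPKM; log2 change -2.08 ± 0.48, adjusted p = 0.0159), where 4.41% of all loci were called lower. It was higher in BPF than in BPE roots (24.4 ± 14.2 against 6.52 ± 2.50 FPKM; 1.68 ± 0.48, adjusted p = 0.0311) and lower in BPS than in BPF roots (4.01 ± 2.51 against 24.4 ± 14.2 FPKM; -2.31 ± 0.48, adjusted p = 0.0204), where 6.64% of loci were called higher and 2% lower. SUS4 was higher in BPS than in BPA roots (51.4 ± 13.5 against 13.9 ± 7.64 FPKM; 1.89 ± 0.61, adjusted p = 0.0440) and in BPS than in BPE roots (against 13.02 ± 9.79 FPKM; 2.23 ± 0.61, adjusted p = 0.0104), and in BPF than in BPE roots (50.5 ± 33.7 FPKM; 2.05 ± 0.61, adjusted p = 0.0364). ADH1 was lower in BPS than in BPE roots (29.8 ± 11.7 against 127 ± 39.4 FPKM; -2.09 ± 0.62, adjusted p = 0.0154). The backgrounds were 10.4% of loci higher in BPS against BPA roots, and 20.8% higher and 18.6% lower in BPS against BPE roots. The shares of the 10 genes were near or below these: 10% higher in BPS against BPA roots, and 10% each way in BPS against BPE roots. Each of these 7 calls was lost when single libraries of its own groups were left out. The HRE2 calls were lost without BPA replicate 1 or 2, or BPB replicate 2 or 3 (BPB against BPA, adjusted p 0.0530 to 0.0707), BPE replicate 1 or 2, or BPF replicate 2 (BPF against BPE, 0.0753 to 0.160), and BPF replicate 1 or 2, or BPS replicate 2 or 3 (BPS against BPF, 0.0571 to 0.0927). SUS4 in BPS against BPA roots was lost in 10 of the 18 fits that left out 1 library (up to 0.172, without BPA replicate 2), in BPS against BPE roots without BPE replicate 1 (0.0517), and in BPF against BPE roots without BPE replicate 1 or 2, or BPF replicate 2 or 3 (0.0551 to 0.180). ADH1 in BPS against BPE roots was lost without BPE replicate 2 (0.0596) or BPS replicate 1 (0.0595).

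In 3 pairs limma called none of the 10 genes: BPE against BPA, where 2.63% of all loci were called either way, BPF against BPA, where 0.0667% were, and BPS against BPB, where 9.24% were. At an unadjusted p under 0.05, 2 genes were higher in BPE than in BPA roots, 7 in BPF than in BPA roots and 4 in BPS than in BPB roots, and none was lower. The share of all loci at that unadjusted threshold was not computed, and the shares above are not its background. The intervals are wide. ADH1 differed by 2.31 between BPE and BPA roots (95% interval 0.99 to 3.63; adjusted p = 0.0600), PDC1 by 2.08 between BPF and BPA roots (0.61 to 3.54; adjusted p = 0.280) and LBD41 by 1.44 between BPS and BPB roots (0.36 to 2.52; adjusted p = 0.0788). PDC2, with the narrowest interval, differed by 0.04 between BPE and BPA roots (-0.42 to 0.51) and by 0.18 between BPS and BPB roots (-0.28 to 0.65).

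**Figure D4:**
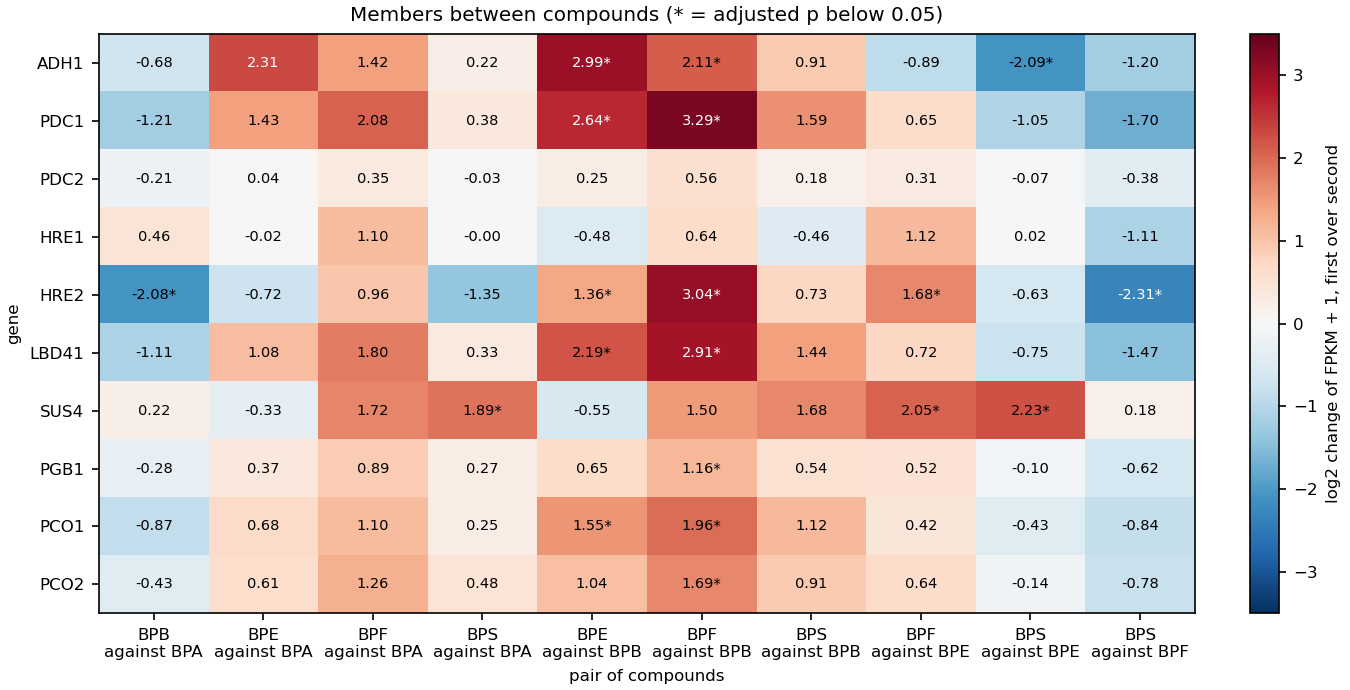
Log2 change of FPKM + 1 of the 10 genes (rows) in the 10 pairs of compounds (columns), first compound over second; an asterisk marks an adjusted p below 0.05 in limma. The 7 asterisks of BPF against BPB and the 5 of BPE against BPB are all positive.

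The other genes of the pathway had smaller median changes than the 10 genes. Of 14 tested genes of fermentation and sugar supply outside the 10 (16 listed), 2 were called lower and 1 higher in BPA, 4 and 3 in BPB, 0 and 2 in BPE, 0 and 0 in BPF and 2 and 0 in BPS roots. The shares called lower were 14.3%, 28.6%, 0%, 0% and 14.3%, beside 3.83%, 11.1%, 5.2%, 0.677% and 8.71% of all loci. Those called higher were 7.14%, 21.4%, 14.3%, 0% and 0%, beside 6.57%, 25.5%, 9.08%, 0.708% and 12.3%, so that the rises in BPA and BPB roots were near the share of all loci. The list's median changes lay between -0.32 and 0.06. For BPF, 1 was lower and 0 higher at an unadjusted p under 0.05, a threshold at which the share of all loci was not computed. SUS1, a sucrose synthase close to SUS4 in sequence, fell in BPA roots (18.8 FPKM, against 51.7 in control roots; log2 change -1.40 ± 0.30, adjusted p = 0.0118) and BPB roots (16.9 FPKM; -1.59 ± 0.30), and its BPA call was lost without control replicate 1 (0.0627) or BPA replicate 2 (0.0614). SUS3 rose in BPA (8.97 FPKM, against 4.59 in control roots; 0.83 ± 0.20), BPB (9.63; 0.92 ± 0.20) and BPE roots (11.4; 1.12 ± 0.20, adjusted p = 0.00493), the BPA call being lost without control replicate 1, control replicate 3, BPA replicate 1 or BPA replicate 2 (0.0586 to 0.102). ALDH2B7, an aldehyde dehydrogenase that acts on acetaldehyde, fell in BPB (16.1 FPKM, against 102 in control roots; -2.55 ± 0.45) and BPS roots (19.9; -2.26 ± 0.45), and its call in BPA roots (37.9; -1.63 ± 0.45, adjusted p = 0.0338) was lost in 5 of the 18 fits that left out 1 library (up to 0.135, without control replicate 1). ALAAT1, an alanine aminotransferase, fell in BPB (74.9 FPKM, against 165 in control roots; -1.13 ± 0.18) and BPS roots (84.4; -0.97 ± 0.18).

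Outside the 10 genes, 14 others that sense oxygen or control the pathway were listed and tested, and none of these 14 was called lower with any compound. Of all loci, 3.83%, 11.1%, 5.2%, 0.677% and 8.71% were called lower in BPA, BPB, BPE, BPF and BPS roots, so 0 of 14 was little below that. Of the 14 (constitutive group VII factors, cysteine oxidases, N-degron enzymes, docking proteins and phytoglobins), limma called 1 higher in BPA, 5 in BPB, 2 in BPE, 0 in BPF and 1 in BPS roots. As shares these were 7.14%, 35.7%, 14.3%, 0% and 7.14%, beside 6.57%, 25.5%, 9.08%, 0.708% and 12.3% of all loci. The share in BPA roots was near that of all loci, and that in BPS roots was below it. At an unadjusted p under 0.05, 3 were lower and 3 higher in BPA, 0 and 6 in BPB, 1 and 3 in BPE, 0 and 2 in BPF and 0 and 1 in BPS roots. The share of all loci at that unadjusted threshold was not computed. RAP2.3, a constitutive group VII factor, rose in BPA (87.0 ± 25.2 FPKM; log2 change 1.25 ± 0.28, adjusted p = 0.0146), BPB (118 ± 40.1; 1.67 ± 0.28, adjusted p = 0.000417) and BPE roots (76.1 ± 3.07; 1.10 ± 0.28, adjusted p = 0.0211), against 35.1 ± 5.18 FPKM in control roots (SD, n = 3 each). The BPB call held in every fit; the BPA call was lost without control replicate 1, control replicate 3 or BPA replicate 2 (0.0534 to 0.0869), and the BPE call without BPE replicate 1, BPE replicate 2, control replicate 1 or control replicate 3 (0.0687 to 0.0859). PCO5, a cysteine oxidase of the type that low oxygen does not induce, rose in BPB roots (13.6 FPKM, against 7.10 in control roots; 0.86 ± 0.15), whereas PCO1 and PCO2 fell there. PRT6, the ubiquitin ligase of the N-degron pathway, was at 17.5 FPKM in BPB roots, against 11.9 in control roots (0.53 ± 0.12, adjusted p = 0.00314). RAP2.12, the most studied of the constitutive factors, averaged 40.1 FPKM in BPA, 39.9 in BPB, 44.5 in BPE, 45.8 in BPF and 36.1 in BPS roots, against 51.2 in control roots, and was called with no compound.

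Of 35 tested genes among 36 others that low oxygen induces in Arabidopsis, 7 were called lower and 0 higher in BPA, 11 and 4 in BPB, 4 and 2 in BPE, 0 and 0 in BPF and 9 and 3 in BPS roots. The shares called lower were 20%, 31.4%, 11.4%, 0% and 25.7%, beside 3.83%, 11.1%, 5.2%, 0.677% and 8.71% of all loci. The shares called higher were 0%, 11.4%, 5.71%, 0% and 8.57%, each below that of all loci (6.57%, 25.5%, 9.08%, 0.708% and 12.3%). For BPF, 4 were lower and 6 higher at an unadjusted p under 0.05, a threshold at which the share of all loci was not computed. The list's median change was -0.35 in BPA, -0.54 in BPB, -0.54 in BPE, 0.05 in BPF and -0.43 in BPS roots, smaller in size than that of the 10 genes with each compound. The count of genes called lower was 2 in BPA roots without BPA replicate 2, control replicate 1 or control replicate 3, and 6 in BPB roots without control replicate 1 and 7 without BPB replicate 1. In BPE roots it was 1 without BPE replicate 1, BPE replicate 2, control replicate 1 or control replicate 3, and 8 without BPF replicate 2. In BPS roots it was 3 without BPS replicate 2 or control replicate 1. All loci called in BPB roots were 5304 without control replicate 1 and 6411 without BPB replicate 1, against 7137 with all libraries. For the other compounds they are given above beside the counts of the 10 genes. NIP2;1, an aquaporin-like channel induced in roots by low oxygen, was at 2.78 FPKM in BPA, 2.03 in BPB, 4.92 in BPE and 2.24 in BPS roots, against 60.7 in control roots, with log2 changes of -3.97, -4.26, -3.48 and -4.16 (SE 0.65 each), and no call was lost in any fit. HRA1, a repressor of RAP2.12, fell in BPA (4.95 FPKM, against 38.2 in control roots; -2.67 ± 0.61) and BPB roots (2.60; -3.42 ± 0.61), the BPA call being lost without control replicate 1 (0.0783), control replicate 3 (0.0624) or BPA replicate 2 (0.0761). ETR2, an ethylene receptor, was at 4.71 FPKM in BPA roots, against 21.2 in control roots (-1.96 ± 0.30, adjusted p = 0.00449). Some members went the other way: AT3G10020 was at 96.0 FPKM in BPE roots, against 26.6 in control roots (1.89 ± 0.40, adjusted p = 0.0101), a call lost without control replicate 3 (0.0626) or BPE replicate 1 (0.0529), and AT3G23170 was at 79.5 FPKM in BPS roots, against 10.6 in control roots (2.73 ± 0.47, adjusted p = 0.00139).

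**Figure D5:**
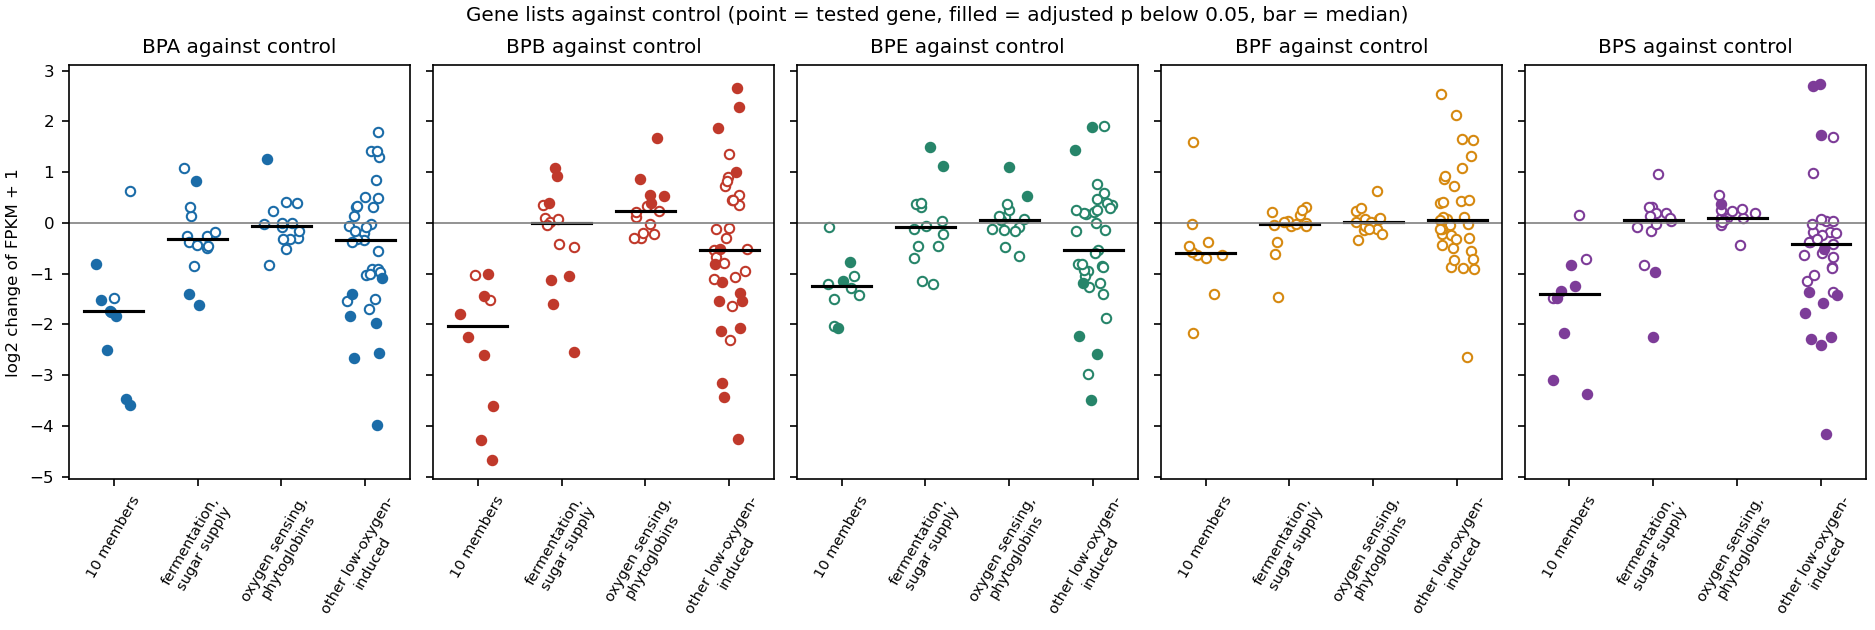
Log2 change of FPKM + 1 against control for the tested genes of 4 lists, 1 panel per compound; each point is a gene, filled points have an adjusted p below 0.05 in limma, and the bar is the median. The medians of the 10 genes lie between -2.03 and -0.60, and those of the other lists between -0.54 and 0.23.

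The 10 genes shared a profile over the 18 libraries to different degrees. Likeness was measured as the mean absolute difference, in log2(FPKM + 1) centred on each gene's mean, from the median profile of the 10, over 18 libraries. PCO2 (0.160), PCO1 (0.207) and PGB1 (0.224) were nearest to that profile, LBD41 (0.403), HRE1 (0.433) and PDC2 (0.461) farther, and PDC1 (0.733), SUS4 (0.733), HRE2 (0.740) and ADH1 (0.784) farthest, where the median of all loci tested was 0.800. A small distance needs a change of the same size as well as of the same shape, so ADH1 and PDC1, which fell most, score as distant. The 5 other loci nearest to the profile were AT3G27220 (0.167), which is in the list of other low-oxygen genes, HSP17.6A (0.331), a small heat shock protein, AT2G29870 (0.331), PSAT (0.341), a phosphoserine aminotransferase, and AGP12 (0.349), an arabinogalactan peptide. AT3G27220 averaged 8.84 ± 1.23 FPKM in BPA, 6.99 ± 1.34 in BPB, 13.8 ± 3.40 in BPE, 25.2 ± 20.8 in BPF and 11.2 ± 4.04 in BPS roots, against 35.05 ± 11.1 in control roots (SD, n = 3 each). AGP12 was at 208, 113, 445, 381 and 201 FPKM in BPA, BPB, BPE, BPF and BPS roots, against 569 in control roots. HSP17.6A and AT2G29870 were low genes, at 0.195 and 0.131 FPKM in BPB roots, against 4.14 and 4.99 in control roots. The log2(FPKM + 1) scale understates their changes, which bears on their distances. These distances are descriptions over libraries that share groups, and the loci were picked for them.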

How the data were processed

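Roots of 6 groups with 3 libraries each were grouped by the sample titles. The deposited values are FPKM for 33602 loci, 1 table per library, per the file headers. Per the submitters' processing notes, the authors used HISAT2 2.0.4, StringTie 1.3.0 and edgeR with the build TAIR10; the role of each tool, the annotation and the settings are not given in the sources used here. The tables hold no counts, so FPKM were analysed as log2(FPKM + 1) with limma 3.58.1 in R 4.3.3 (limma-trend, 1 coefficient per group, all 18 libraries). The 19484 loci with a mean of at least 1 FPKM were tested in 15 comparisons with two-sided p-values. Benjamini-Hochberg adjustment ran over all loci of a comparison, and genes were called below 0.05. The 95% interval of a log2 change reached 0.40 to either side in the median locus. An F test compared the 6 groups.

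The genes and the lists were chosen with earlier results of these data known. All 10 genes were named in every comparison, and up to 4 called genes of each other list per comparison, those with the smallest adjusted p, of which a part is given. The 5 loci nearest to the 10 genes' median profile were also named.

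Fragment totals come from the step between low values: 48.5% to 55.3% of low values lay within 0.02 of a whole number of fragments, where even spread gives 4.0%. That is too few for a count test, and the totals speak to counting error only. All pairs of replicates differed by more than counting noise, so none was taken as a repeat deposit. Replicate numbers were checked for pairing by the correlation of deviations from group means: all 3 same-numbered pairs exceeded 0.1 for BPA with control (0.295, 0.296 and 0.419) and for no other pair of groups. The labels name nothing that same-numbered libraries share. A blocked fit of the BPA and control libraries alone was added after seeing the data. Alternatives were a pseudocount of 0.1, no filter on low values, quantile normalization, median scaling, no intensity trend, a replicate block, only the libraries compared, an added 2-fold threshold, adjustment over all 15 comparisons, and each library left out in turn. Gene coordinates and promoters come from the RefSeq annotation and genome TAIR10.1; the tables give no coordinates. The labels name no batch.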

Additional observations from a re-analysis of the deposited data

How the results depend on the processing

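Of the 25 calls against control, 24 were kept with a pseudocount of 0.1, 22 without a filter, 25 with quantile normalization, 25 with median scaling, 24 without the intensity trend, 25 with only the libraries compared (9 more were added), 22 with a 2-fold threshold and 23 with adjustment over all 15 comparisons. The BPE count of 3 genes was 1 without the filter and 8 with only the libraries compared; the BPF count of 0 lower and 0 higher was 1 lower (ADH1, adjusted p = 0.0280) and 1 higher (HRE2, adjusted p = 0.0345) with adjustment over all comparisons; the 19 calls between compounds were 12 with only the libraries compared. The cause was not tested. Leaving out each library gave 1 to 8 genes called lower in BPA, 7 to 9 in BPB, 0 to 7 in BPE, 0 in BPF and 3 to 8 in BPS roots, 13 to 22 calls between compounds and 8 to 10 genes in the F test. The other low-oxygen genes called lower ran from 2 to 8, 6 to 14, 1 to 8, 0 to 1 and 3 to 10 in BPA, BPB, BPE, BPF and BPS roots. Signs turned for HRE2 in BPE roots (log2 change -0.42 to 0.23), SUS4 in BPF roots (-0.53 to 0.27) and SUS4 in BPS roots (-0.0113 to 0.38).

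Outside BPA with control, replicate numbers did not pair the groups: over all groups the deviations of 15 of 45 same-numbered pairs correlated above 0.1 (-0.566 to 0.648, the highest for BPB with BPS), and 9 of 18 libraries correlated best with their own number. With a replicate block over all 18 libraries, 7 genes were called lower in BPA, 9 in BPB, 2 in BPE, 0 in BPF and 6 in BPS roots, with 18 calls between compounds and 9 in the F test, and 23 of the 25 calls against control were kept. The block lost PCO2 in BPS (adjusted p = 0.0558), PGB1 in BPE (0.0605) and HRE2 in BPE against BPB roots (0.0538), added SUS4 in BPB roots (0.0375), and changed no BPA call. In the BPA and control libraries alone, 9 genes were called lower with the block and 9 without it. All loci called either way there were 2562 without the block and were not counted with it. Loci called in all, 2027 in BPA, 7137 in BPB, 2783 in BPE, 270 in BPF and 4094 in BPS roots, were 813, 2658, 1129, 160 and 1701 with a 2-fold threshold. They were 4943 in BPE roots with only the libraries compared, and in BPF roots 173 without the filter and 1194 with adjustment over all comparisons. Leaving out each library gave 245 to 3022, 4990 to 7601, 449 to 3504, 25 to 625 and 2302 to 4615. With 3 libraries a group and no counts, changes smaller than the intervals given were not detectable.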
